A study of Sus scrofa with 13 samples.

Results

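The 10 genes described here encode enzymes that write, oxidise or remove DNA methylation, or that supply the oxidation with its co-substrate. They are the TET dioxygenases TET1, TET2 and TET3, the DNA methyltransferases DNMT1, DNMT3A and DNMT3B, the methyltransferase partner UHRF1, the DNA glycosylase TDG, and the isocitrate dehydrogenases IDH1 and IDH2. They were taken by gene symbol from a table of 27339 gene rows, and all 10 were found. The values count sequenced DNA fragments of these genes that an antibody pulled down for carrying 5hmC (5-hydroxymethylcytosine), the first product of the oxidation of methylcytosine. They are not measures of how much RNA or protein the genes make. Which parts of each gene were counted is not stated.

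DNA methylation is set by methyltransferases that add a methyl group to cytosine. TET enzymes turn methylcytosine into 5hmC and further oxidised forms, using molecular oxygen, iron and 2-oxoglutarate. TDG cuts out the most oxidised forms, after which repair restores plain cytosine. IDH1 and IDH2 produce 2-oxoglutarate, IDH1 in the cytosol and IDH2 in mitochondria. Because TET enzymes need oxygen, the effect of low oxygen on 5hmC is a common question in stem cell culture.

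The cells were mesenchymal stem cells grown from abdominal fat of female domestic pigs, which had received a 2% cholesterol diet and, 3 weeks before the fat was taken, a coil that narrows the renal artery. The diet and the stenosis were shared by both groups. Hypoxia, with 6 libraries, meant 48 hours of culture in 1% oxygen, and normoxia, also with 6, culture in 20% oxygen. The titles carry the numbers 110, 16, 21, 33, 49 and 4, once in each group, and the labels do not say what these numbers mark.

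Hypoxia libraries held 353379 to 623108 reads in genes and normoxia libraries 263578 to 714002, which was 1.69 to 2.89% of all reads. A further 88.0 to 93.0% lay outside any counted feature. The feature type is not given, so each value may cover only a part of its gene. The normoxia library of number 21 had the lowest total and the lowest share in genes of all 12. Of 6 stromal marker genes, 6 had 5hmC reads in every library, as did 2 of 3 leukocyte, 3 of 3 endothelial and 2 of 3 epithelial markers. Reads on DNA do not show which of these genes are expressed, so the cell type could not be checked against its markers.

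No change in 5hmC reads between hypoxia and normoxia passed the test at any of these genes. Levels are in CPM, the reads of a gene scaled to the TMM-adjusted number of reads that its library had in the tested genes. For 9 of the 10 genes counts were high enough to test, and TDG was not. Of those 9, 0 passed edgeR's quasi-likelihood test at an adjusted p under 0.05, and 0 had an unadjusted p under 0.05. DESeq2's Wald test likewise called 0. Over all 11868 tested genes edgeR called 0, or 0.0%, and 324 had an unadjusted p under 0.05. With the title number as a block, 0 members and 4 genes in all (0.0337%) were called. The hypoxia and normoxia values overlapped at all 10 genes, and at all but 0.101% of tested genes. What follows are therefore levels and their spread, with 95% confidence intervals of the fold changes.

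**Figure D1:**
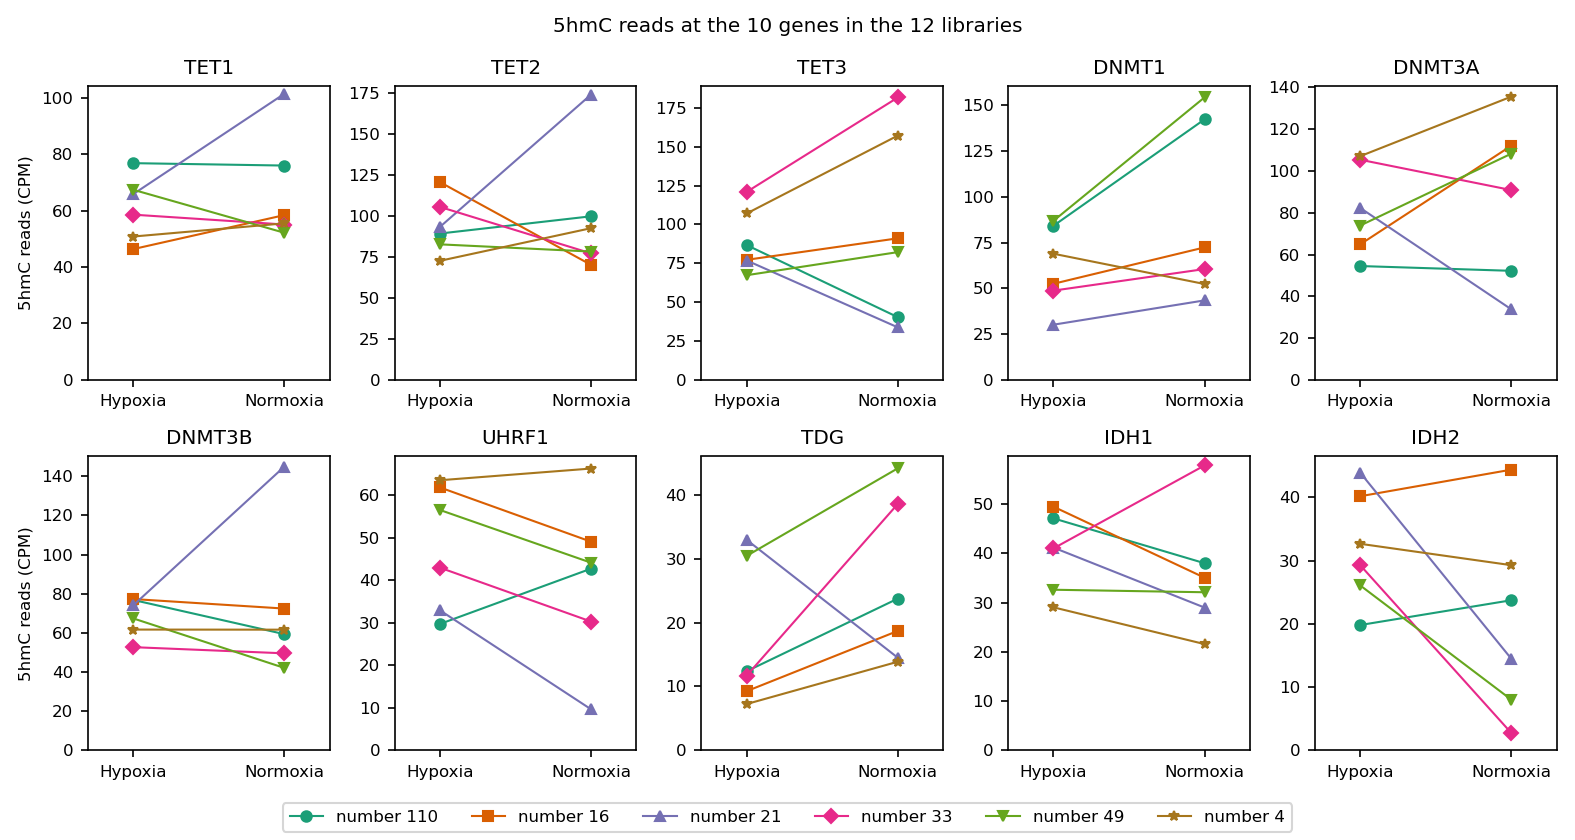
5hmC reads in CPM (vertical axes, from 0, on a separate scale for each gene) at the 10 genes in hypoxia (left of each panel) and normoxia (right). Each line joins the libraries of 1 title number. At DNMT1 the hypoxia point is lower in 5 of 6 numbers, and the normoxia library of number 21 is the highest of all 12 at TET1, TET2 and DNMT3B.

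The TET genes, whose products make 5hmC, carried similar numbers of 5hmC reads in both groups. TET1 had 15 to 36 reads per library. Its level was 46.4 CPM at the lowest, 62.2 at the median and 76.8 at the highest in hypoxia, against 52.1, 56.9 and 101 CPM in normoxia. The means were 60.96 ± 11.3 CPM in hypoxia and 66.4 ± 19.1 CPM in normoxia (SD, n = 6 each). The groups lie over each other, and in 3 of 6 numbers the hypoxia library was the higher one. The log2 fold change was -0.09 ± 0.244 (SE), with a 95% interval of -0.59 to 0.42.

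TET2, an enzyme also known as a tumour suppressor of blood cells, had 28 to 60 reads per library. It stood at 72.6 CPM at the lowest, 91.2 at the median and 121 at the highest in hypoxia libraries, against 70.1, 85.3 and 174 CPM in normoxia libraries. A single library, normoxia 21, lies far above the other 11, which span 70.1 to 121 CPM. The log2 fold change of TET2 was -0.04 ± 0.248 with an interval of -0.56 to 0.47. Without normoxia 21 it was 0.16.

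TET3, the TET enzyme of the egg and early embryo in mice, varied most of the family. It had 67.4, 82.0 and 121 CPM (lowest, median and highest) in hypoxia, against 33.8, 86.7 and 182 CPM in normoxia. Numbers 33 and 4 were high in both groups, with 121 CPM in hypoxia and 182 CPM in normoxia for number 33, and 107 and 157 CPM for number 4. Number 110 differed in the other direction, with 86.7 CPM in hypoxia and 40.4 CPM in normoxia, as did number 21 with 76.8 and 33.8 CPM. Over all numbers the log2 fold change was -0.15 ± 0.327, with an interval of -0.83 to 0.53. In the reference annotation TET3 overlaps LOC102163719, a protein-coding gene with 56.0 ± 20.0 CPM in hypoxia and 53.4 ± 27.5 CPM in normoxia. Reads that could not be assigned to a single gene stand in a separate row of the deposited tables, with 0.00502 to 0.00948% of all reads, and are in no gene's value. Together the 3 TET genes had 244 ± 23.3 CPM in hypoxia and 263 ± 51.2 CPM in normoxia, with hypoxia higher in 3 of 6 numbers.

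Among the genes that write methylation, DNMT1 had the log2 fold change of largest size. DNMT1 copies methylation onto new DNA strands after replication. It had 30.2 CPM at the lowest, 60.8 at the median and 86.9 at the highest in hypoxia, against 43.5, 66.5 and 154 CPM in normoxia. The hypoxia library was lower in 5 of 6 numbers, all but number 4. At least 5 of 6 numbers were lower in hypoxia for 14.3% of all tested genes, and of the 9 tested members DNMT1 was the 1 such gene. Its log2 fold change was -0.51 ± 0.328 (interval -1.19 to 0.17, unadjusted p = 0.132, edgeR adjusted p = 1). The gap was widest in numbers 110 and 49. Number 110 had 84.2 CPM in hypoxia and 142 CPM in normoxia, and number 49 had 86.9 and 154 CPM. Leaving out normoxia 49 moved the log2 fold change to -0.27, and leaving out normoxia 110 moved it to -0.32.

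DNMT3A and DNMT3B, which set new methylation marks, did not share a pattern. DNMT3A had 54.5, 78.1 and 107 CPM (lowest, median and highest) in hypoxia, against 33.8, 99.6 and 136 CPM in normoxia, and was higher in hypoxia in 3 of 6 numbers. Its log2 fold change was -0.15 ± 0.288 (interval -0.75 to 0.44). DNMT3B had 52.7, 70.7 and 77.3 CPM in hypoxia, against 42.1, 60.5 and 145 CPM in normoxia. It was higher in hypoxia in 5 of 6 numbers, although number 4 was nearly level with 61.7 CPM in hypoxia and 61.6 CPM in normoxia. The 1 exception was number 21, with 74.1 CPM in hypoxia and 145 CPM in normoxia. The log2 fold change was -0.02 ± 0.280 (interval -0.60 to 0.56) over all libraries, 0.25 without normoxia 21 and 0.0372 with the title number as a block.

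UHRF1, which binds hemimethylated DNA and brings DNMT1 to it, had 29.7, 49.7 and 63.5 CPM in hypoxia, against 9.66, 43.4 and 66.3 CPM in normoxia. It was higher in hypoxia in 4 of 6 numbers, and its log2 fold change was 0.18 ± 0.317 (interval -0.48 to 0.83). The value was 0.03 without normoxia 21, where UHRF1 had 2 reads. The UHRF1 and DNMT1 fold changes thus had opposite signs, and neither passed the test. In the reference annotation the span of ARRDC5 overlaps that of UHRF1, and ARRDC5 held 39 reads over all 12 libraries.

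TDG, the glycosylase that removes the most oxidised cytosines, had 3 to 22 reads per library and was below the count filter. Its level was 7.26, 12.05 and 32.9 CPM (lowest, median and highest) in hypoxia, against 13.9, 21.2 and 44.1 CPM in normoxia, lower in hypoxia in 5 of 6 numbers. Tested without the filter its log2 fold change was -0.59 (unadjusted p = 0.166, edgeR adjusted p = 1). The span of TDG overlaps that of GLT8D2, which had 80.0 ± 23.7 CPM in hypoxia and 106 ± 36.1 CPM in normoxia, also lower in 5 of 6 numbers (log2 fold change -0.41 ± 0.269, edgeR adjusted p = 1). Ambiguous reads are left out of both values, but the feature type and strand setting that decide which reads count as ambiguous are not given, and the part of GLT8D2 in the TDG value was not tested.

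The isocitrate dehydrogenase genes both had positive fold changes. IDH1 had 29.0, 41.1 and 49.5 CPM (lowest, median and highest) in hypoxia, against 21.6, 33.6 and 57.8 CPM in normoxia. The hypoxia library was higher in 5 of 6 numbers, all but 33, and the log2 fold change was 0.17 ± 0.282 (interval -0.42 to 0.75). For a gene to be higher in at least 5 of 6 numbers was seen at 11.9% of all tested genes, and IDH1 and DNMT3B were the 2 such members. IDH2 had 19.8, 31.0 and 43.9 CPM in hypoxia, against 2.75, 19.1 and 44.4 CPM in normoxia. In number 33 it had 15 reads in hypoxia and 1 in normoxia, in number 49 12 and 4 reads, and in number 21 16 and 3 reads. In the other numbers the groups were close, with 8 reads in hypoxia and 10 in normoxia for number 110, 13 and 19 for number 16, and 18 and 19 for number 4.

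IDH2 had the largest log2 fold change in size of the 9 tested genes, at 0.57 ± 0.399 (interval -0.26 to 1.397, unadjusted p = 0.168, edgeR adjusted p = 1). Leaving out normoxia 33 moved it to 0.37, and leaving out normoxia 49 to 0.39. Without normoxia 16 it was 0.94, with an unadjusted p of 0.032 and an edgeR adjusted p of 0.921. Only 6.42% of tested genes had a lower mean CPM than IDH2. Its hypoxia libraries reached the count level of the filter more often than its normoxia libraries. Its place among the tested genes therefore depends on the filter. Without the filter IDH2 stood at 0.59 and TDG, which the filter had left out, at -0.59. IDH1 and IDH2 together had 72.0 ± 12.6 CPM in hypoxia and 56.0 ± 14.4 CPM in normoxia (SD, n = 6 each), from 9 to 36 reads per library. Their sum was higher in hypoxia in 6 of 6 numbers, also relative to the unadjusted reads in all genes. Relative to all reads it was higher in 5 of 6. The DNMT sum and the sum over all 10 genes ran the other way. The 3 DNMT genes together had 212 ± 19.5 CPM in hypoxia and 248 ± 35.3 CPM in normoxia. They were lower in hypoxia in 5 of 6 numbers, also relative to the unadjusted reads in all genes, and in 4 of 6 relative to all reads. All 10 genes together had 593 ± 16.1 CPM in hypoxia and 633 ± 33.3 CPM in normoxia, lower in hypoxia in 6 of 6 numbers but in 4 of 6 on either of the other scales. Among single tested genes, 1.68% were higher in hypoxia in 6 of 6 numbers and 2.59% lower. No such share was worked out for sums of genes, so these shares do not show how rare such sums are. The sums were chosen with these values known and were not tested.

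**Figure D2:**
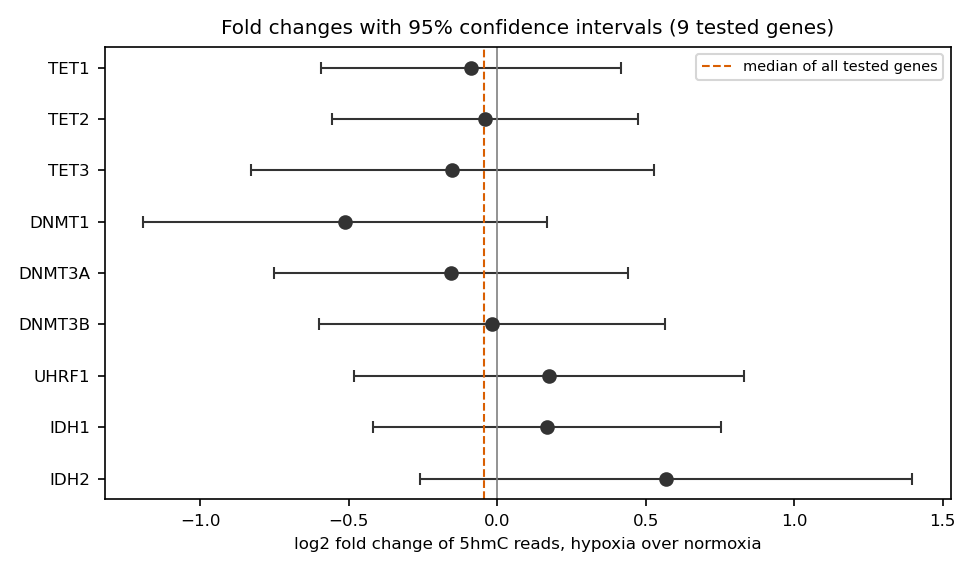
Log2 fold change of 5hmC reads, hypoxia over normoxia, at the 9 tested genes. Points are edgeR estimates from 6 libraries a group, bars are 95% confidence intervals, and the dashed line is the median of all tested genes at -0.04. Every interval spans 0, from DNMT1 at -0.51 to IDH2 at 0.57.

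Across the list the log2 fold change was above 0 at 3 members and below 0 at 6, and its median was -0.04. Over all tested genes 43.4% were positive, with the same median of -0.04. With library size as the only scaling 5 members were positive and 4 negative, and 51.2% of all genes were positive. On the linear scale the intervals reached from 0.438 to 1.12 for DNMT1 and from 0.836 to 2.63 for IDH2. For the 3 TET genes they lay between 0.563 and 1.44. With the title number as a block the intervals were narrower, from 0.545 to 1.02 for DNMT1 and from 0.976 to 2.61 for IDH2, and between 0.689 and 1.33 for the TET genes. In that fit the log2 fold change was -0.42 ± 0.223 at DNMT1 (unadjusted p = 0.0673) and 0.67 ± 0.348 at IDH2 (unadjusted p = 0.0617), with an edgeR adjusted p of 0.711 for both. TET3 stood at -0.05 ± 0.231 with the block.

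Read numbers were small, so the spread between libraries is given beside the variation that counting alone would give. TET1 had a median of 27 reads, at which counting alone gives a coefficient of variation of 19.2%, and its CPM varied by 18.5% in hypoxia and 28.8% in normoxia. DNMT1 had a median of 32.5 reads and a counting variation of 17.5%, and varied by 35.7% in hypoxia and 55.0% in normoxia. IDH2, with a median of 12.5 reads, varied by 27.9% and 74.7% against a counting variation of 28.3%. These medians are over all 12 libraries, and counting variation is larger in a group with fewer reads. IDH2 had 56 reads in normoxia and 82 in hypoxia, so its normoxia spread is set against too small a counting variation. The spread at TET1, over the 12 libraries, was smaller than at all but 8.45% of tested genes, and that at TET3 was larger than at 84.6% of them. Normoxia varied more than hypoxia at 9 of the 10 genes, the exception being TDG, and the difference in spread was not tested. The share of all tested genes at which normoxia varied more is not given here. The normoxia group also holds the library with the fewest reads in genes, that of number 21.

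**Figure D3:**
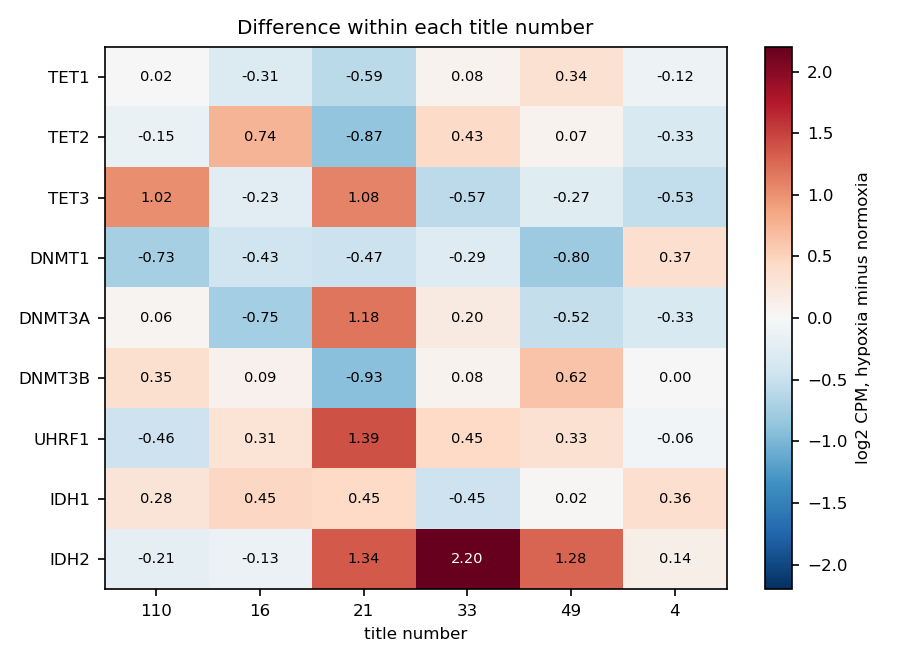
Difference in log2 CPM, hypoxia minus normoxia, within each title number (columns) at the 9 tested genes (rows). Red is higher and blue lower in hypoxia, and the number in each field is the difference. DNMT1 is blue in 5 of 6 columns, and the largest differences are at IDH2 in number 33 (2.199) and at UHRF1 in number 21 (1.39).

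Within a title number the members did not move together. The hypoxia library was higher at 5 of 9 genes in number 110, 4 in number 16, 5 in number 21, 6 in numbers 33 and 49, and 4 in number 4. The median difference ranged from -0.13 in number 16 to 0.45 in number 21. In number 21 the genes lay far to both sides of 0, with UHRF1 at 1.39, IDH2 at 1.34, DNMT3A at 1.18 and TET3 at 1.08 on one side, and DNMT3B at -0.93, TET2 at -0.87 and TET1 at -0.59 on the other.

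The normoxia library of number 21 stood at an end of the range at 6 of the 10 genes. How often it does so over all tested genes is not given here, so the count does not set these genes apart. It was the highest of all 12 at TET1 (101 CPM), TET2 (174 CPM) and DNMT3B (145 CPM). At the other end, it was the lowest of all 12 at TET3 (33.8 CPM), DNMT3A (33.8 CPM) and UHRF1 (9.66 CPM), where the other 11 libraries reached down to 40.4, 52.2 and 29.7 CPM. It also had the fewest reads in genes and the lowest share of reads in genes, at 1.69%. Its 21 reads at TET1, 36 at TET2 and 30 at DNMT3B lay within the 15 to 36, 28 to 60 and 18 to 40 of the other libraries. Where it stands relative to all reads is not given here, and the part of depth in these values was not tested. Without this library the members' split turned to 6 positive and 3 negative log2 fold changes, again with 0 called.

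A test of whether 5hmC reads at these genes differed between the title numbers was added after the values had been seen. DNMT1 and TET3 passed, with edgeR quasi-likelihood adjusted p of 0.017 for DNMT1 and 0.0449 for TET3, oxygen being kept in the model. That is 2 of 9 members, while 12.8% of all tested genes passed. DNMT1 averaged 121 CPM over both libraries of number 49 and 113 CPM in number 110, against 36.8 CPM in number 21, 54.7 in number 33, 60.7 in number 4 and 62.5 in number 16. At DNMT1 the libraries of 49 and 110 were the highest within each oxygen group. TET3 averaged 151 CPM in number 33 and 132 CPM in number 4, and 55.3 to 84.2 CPM in the others.

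The other members did not pass for title number. DNMT3A had an adjusted p of 0.175 and UHRF1 of 0.188, and TET1 and TET2 of 0.614 and 0.679 (edgeR). The DNMT1 call was lost without number 49 (adjusted p = 0.0796) and within sequencing lane 7, which holds 4 of the numbers (0.0514). The TET3 call was lost without number 110 (0.0666), 33 (0.158), 49 (0.0568) or 4 (0.0538), within lane 7 (0.0694), and with library size as the only scaling (0.0542). Lane 8 holds only numbers 49 and 4, so that lane and title number cannot be told apart for these 2. The lane was read from the names under which the counts were deposited, not from the labels.

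**Figure D4:**
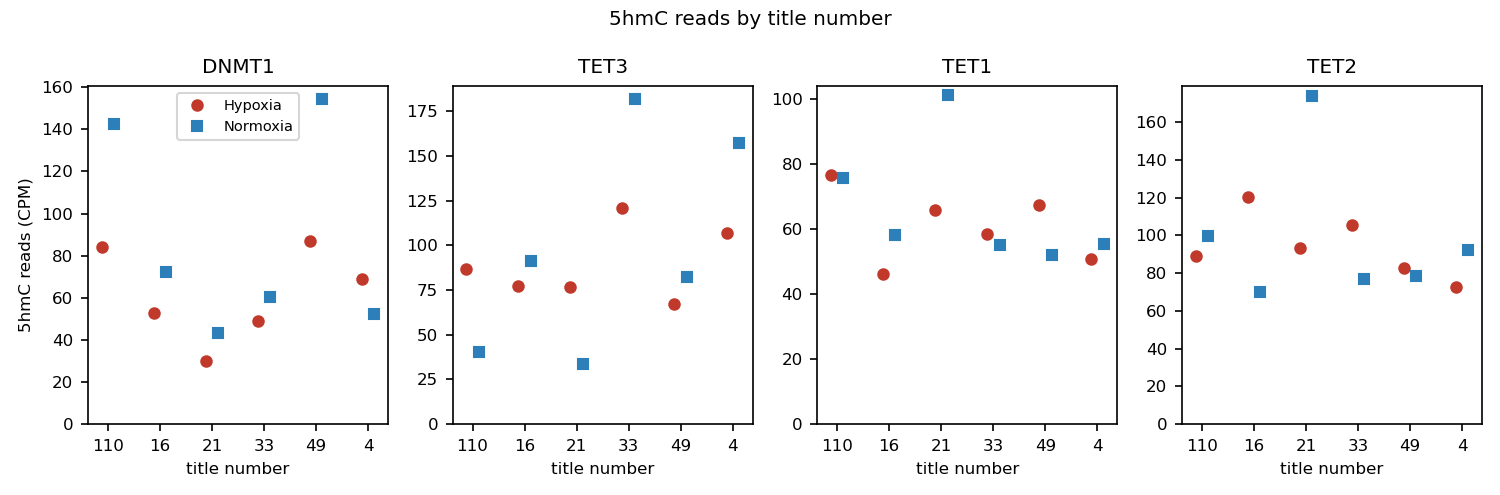
5hmC reads in CPM (vertical axes, from 0) by title number at DNMT1, TET3, TET1 and TET2. Circles are hypoxia and squares normoxia libraries. At DNMT1 both libraries of numbers 110 and 49 stand above the others, at TET3 those of 33 and 4, while TET1 and TET2 are flatter apart from the normoxia library of number 21.

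Shares within a family do not depend on how libraries are scaled. DNMT1 took 28.8 ± 8.74% of the reads of the 3 DNMT genes in hypoxia, against 34.3 ± 15.4% in normoxia (± SD over 6 libraries a group), and was lower in hypoxia in 5 of 6 numbers. The share ran from 16.2 to 39.1% in hypoxia and from 19.6 to 56.1% in normoxia, on 46 to 162 DNMT reads per library. The difference did not pass a two-sided exact permutation test over all arrangements of the group labels (p = 0.465, Benjamini-Hochberg adjusted p = 0.931 over 4 shares). The difference of -5.45 percentage points was -1.08 without normoxia 110, -2.17 without normoxia 49, -2.92 without hypoxia 21 and -8.39 without normoxia 21. IDH2 took 44.2 ± 8.37% of IDH reads in hypoxia, against 35.0 ± 20.6% in normoxia (p = 0.346 by the same exact permutation test, adjusted p = 0.931), higher in 3 of 6 numbers. Its difference of 9.22 points was 3.14 without normoxia 33. In the normoxia library of number 33 it was 4.55% (1 of 22 reads, exact 95% binomial interval 0.115 to 22.8%), and in the hypoxia library of that number 41.7% (25.5 to 59.2%). These intervals cover counting error only. With libraries paired by title number, an exact sign-flip permutation test gave p = 0.219 for the DNMT1 share and 0.344 for the IDH2 share. The adjusted p of that test was 0.6875 for both, and the TET shares did not pass it either.

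Within the TET family the shares were alike on average. TET1 took 25.1 ± 5.26% of TET reads in hypoxia libraries, against 25.8 ± 7.29% in normoxia libraries (p = 0.859 by exact permutation, adjusted p = 0.996). TET3 took 36.4 ± 6.46% in hypoxia libraries, against 36.5 ± 18.3% in normoxia libraries (p = 0.996 by exact permutation, adjusted p = 0.996). The range of the TET3 share was 31.0 to 46.5% in hypoxia libraries and 10.9 to 57.9% in normoxia libraries. The normoxia libraries of numbers 21 and 110 lay at the low end, with 10.9 and 18.7%.

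The wider pathway was looked at through a list of 51 genes around these enzymes, all of which were in the table and 28 of which had enough reads to test. Of these, 0 were called, with or without the title number as a block, and 1 had an unadjusted p under 0.05 (edgeR), while DESeq2 also called 0. The log2 fold change was positive at 3 and negative at 25, with a median of -0.20, beside 43.4% positive and a median of -0.04 over all tested genes. With library size as the only scaling 4 were positive and 24 negative, and within lane 7 9 were positive and 20 negative. Without the count filter all 51 could be tested. Of these 13 were positive and 38 negative (median -0.17), beside 46.5% positive over all genes. By role, among the genes that passed the filter, 2 of 9 other writers and readers of methylation were positive, and 0 of 6 TET partners and base excision repair genes. The counts were 1 of 9 for genes that handle 2-oxoglutarate or its competing metabolites, and 0 of 4 for genes of S-adenosylmethionine supply. Genes below the filter went both ways, such as MAT2B, higher in hypoxia in 6 of 6 numbers, and GADD45A, lower in 6 of 6.

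DLST, a subunit of the 2-oxoglutarate dehydrogenase complex, had the smallest p of this list. It had 5.44 to 37.1 CPM in hypoxia and 4.83 to 49.1 CPM in normoxia, with means of 18.8 ± 10.6 and 30.8 ± 14.6 CPM (SD, n = 6 each). Hypoxia was lower in 5 of 6 numbers. The log2 fold change was -0.85 ± 0.390, at an unadjusted p of 0.041 (edgeR adjusted p = 1). ZBTB38, which binds methylated DNA, was the most heavily read of the list, with 120 to 436 reads per library. It had 569 ± 133 CPM in hypoxia and 746 ± 215 CPM in normoxia, lower in 5 of 6 numbers, with a log2 fold change of -0.39 ± 0.219 (unadjusted p = 0.0887, edgeR adjusted p = 1). PARP1, the poly(ADP-ribose) polymerase of strand break repair, had a log2 fold change of -0.56 ± 0.326 and was lower in 3 of 6 numbers.

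On the positive side stood ZBTB33, the methyl-binding protein also called Kaiso, with 32.9 ± 8.74 CPM in hypoxia and 23.5 ± 6.02 CPM in normoxia (SD, n = 6 each). It was higher in 5 of 6 numbers, with a log2 fold change of 0.50 ± 0.289 (edgeR adjusted p = 1). FH, the fumarase of the tricarboxylic acid cycle, had 0.14 ± 0.347, and DNMT3L, a methyltransferase cofactor without activity of its own, had 0.12 ± 0.319.

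**Figure D5:**
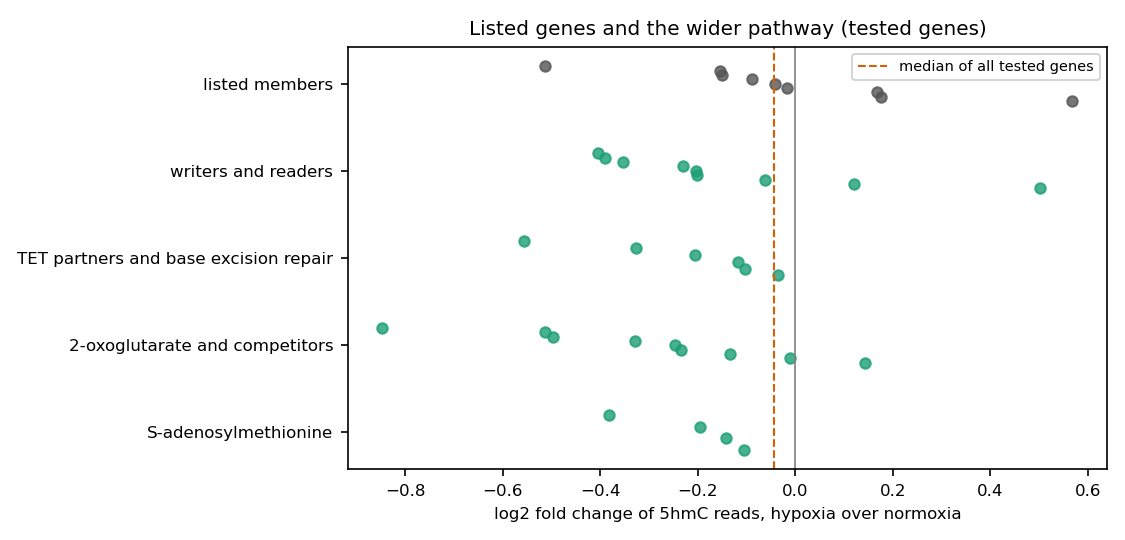
Log2 fold change of 5hmC reads, hypoxia over normoxia, for the 9 tested members of the list and the 28 tested genes of the wider pathway, by role (rows). Each point is a gene and the dashed line is the median of all tested genes at -0.04. The wider pathway has 25 of 28 points below 0 (38 of 51 genes without the count filter), and the members have 6 of 9 (4 of 9 when scaled by library size alone).

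The genes whose log2 CPM over the 12 libraries ran most like that of DNMT1 were RAP2A (Pearson's r 0.941, Spearman's rho 0.867), SDCBP (0.938 and 0.916) and PPP4R3B (0.927 and 0.853). Without the libraries farthest from the DNMT1 median, normoxia 49 and 110, r was 0.894, 0.912 and 0.854. For IDH2 they included HINFP (0.919 and 0.811) and LOC110261015 (0.916 and 0.93), with r of 0.832 and 0.776 without normoxia 33 and 49. Each was among the 3 highest of 11867 genes compared, over libraries that share title numbers and depth, so these values only describe and were not tested.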

How the data were processed

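Per the labels' protocols, DNA was sonicated to about 200 bases, denatured, captured with an anti-5hmC antibody and sequenced for 51 bases from both ends. The authors deposited raw read counts per gene symbol, 1 table per library. The submitters' processing notes name Bowtie2, Picard, HTSeq and edgeR. The sources used here give no build, annotation, counted feature type or strand setting. The deposited peak lists were not used, since no source names the build of their coordinates, and neither was the input sample. No gene sequences are shown.

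The 10 members, the wider list and the tests were chosen with earlier results of these data known. Unassigned-read rows did not enter library sizes (88.0 to 93.0% of reads outside any feature, 4.12 to 10.3% of low alignment quality, 0.00502 to 0.00948% ambiguous). All 10 symbols matched RefSeq names of Sscrofa11.1, used for names and overlaps only. Tests used edgeR 4.0.16 under R 4.3.3 (filterByExpr, minimum count 10 and total 15, TMM, glmQLFit, glmQLFTest), Benjamini-Hochberg adjusted over 11868 genes, and with DESeq2 1.42.0 as an alternative. SE was taken from the log2 fold change and the F statistic. The number term was the joint test of title numbers beside oxygen. Log2 CPM used a prior count of 2. The fit was also run on counts simulated from its own estimates, without differences between title numbers. That run is not used as support here. Every 2 libraries differed by more than sampling noise (lowest chi-square divided by its degrees of freedom 1.26).

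Counts over title numbers and the block fit took libraries sharing a number as paired. The sign-flip test of the shares did so too. The main fit and the exact permutation tests over group labels did not. The pairing was taken because, after removal of group means, libraries sharing a number correlated at 0.136 to 0.478 across genes, each above 0.1. The hypoxia libraries of 33 and 4, though, correlated more with another number's normoxia library. No label says that the libraries are separate animals, so the p-values rest on a spread between libraries that may be technical. Named were all members, the 3 genes of smallest p per direction in the wider list, and the 3 genes most like each of the 2 members of smallest p, of which 1 is not reported here. Overlapping genes were added after the values were seen.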

Additional observations from a re-analysis of the deposited data

Results flagged for a closer look

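In the normoxia group, TET2 had 174 CPM in the library of number 21, set apart from the other 5 libraries, which had 70.1 to 99.7 CPM. The gap to its nearest neighbour was 0.715 of the group's range, above the critical value of 0.625 for 6 samples. The same library was set apart at DNMT3B, with 145 CPM beside 42.1 to 72.4 CPM in the other 5 (gap 0.705 of the range). These were 2 of 28 groups of values looked at, and chance sets apart about 1 in 20. Both rest on 1 library, that with the fewest reads in genes, 263578, where TET2 had 36 and DNMT3B 30 reads. Both read numbers lay within those of the other libraries, 28 to 60 at TET2 and 18 to 40 at DNMT3B. CPM is scaled to the reads in tested genes, so few such reads raise it. The TMM factor of this library was also the lowest of all 12, at 0.8885. Whether the library is set apart relative to all reads was not looked at. Its depth and its lowest share of reads in genes move with these values, and their part was not tested.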

How the results depend on the processing

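At the 10 genes 0 were called under every alternative run, and of 190 alternative values 167 kept the direction. DNMT1, UHRF1, IDH1 and IDH2 kept it throughout, as did TDG in its 1 alternative, with ranges of -0.63 to -0.27 for DNMT1 and 0.37 to 0.94 for IDH2. The title number as a replicate block changed no member's call (lowest adjusted p = 0.711). It turned DNMT3B to 0.0372 and called 4 genes in all, and in the block without number 21 there were 12, with TET1 at 0.0226, TET2 at 0.15 and DNMT3B at 0.25. With library size only, TET2 was at 0.0282 and DNMT3B at 0.0431, and with all reads as library size at 0.0047 and 0.0390. Without a filter DNMT3B was at 0.0165. In lane 7, TET2 was at 0.0166, TET3 at 0.0421 and DNMT3A at 0.0633. Leaving out 1 library gave -0.15 to 0.0393 for TET1, -0.10 to 0.16 for TET2, -0.31 to 0.10 for TET3, -0.29 to 0.0126 for DNMT3A and -0.13 to 0.25 for DNMT3B. The TET3 share differed by 2.99 points in lane 7 and by 0.13 as a log2 ratio, and with 1 library left out by -5.25 to 4.15 points (TET1 share -2.31 to 1.21, DNMT1 share -8.39 to -1.08, IDH2 share 3.14 to 13.7). Title numbers differed at 1 member with library size only, at 0 in lane 7 (834 genes in all), and at 0 to 2 members and 884 to 1935 genes with 1 number left out. The lane and block alternatives were as planned; all reads as library size, the block without 21 and the number test were chosen after seeing the data. The cause of these shifts was not tested. At 1 to 102 reads per gene and library, depth limits every value.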
